A study of Mus musculus with 14 samples.

Results

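The genes described here are 8 genes of the follicular helper T cell program, taken as a list of known genes and found in the data by gene symbol: the transcriptional regulators Bcl6, Pou2af1, Ascl2, Tox2 and Maf, the surface receptors Icos and Cxcr5, and the cytokine gene Il21. They are 8 of 46303 genes that had a usable value in at least 1 of the experiments. RNA-Seq was performed on 14 libraries of cultured mouse CD4+ T cells on a C57BL/6 background. In the one experiment, naive CD4+ T cells of WT mice and of HDAC1cKO-HDAC2HET mice (Hdac1 fl/fl Hdac2 fl/+ Cd4-Cre) were activated with anti-CD3/anti-CD28 and IL-2 under nonpolarizing conditions for 3 days, with 4 libraries per genotype. In the other, WT and HDAC1cKO (Hdac1 fl/fl Cd4-Cre) CD4+ T cells received anti-CD3 again for 12 hours after 3 days of activation, with 3 libraries per genotype. HDAC1 and HDAC2 are histone deacetylases. Cd4-Cre deletes during thymic development in all T cells that pass through the CD4-expressing stage, and thus before the culture began. No agent that directs cells to the follicular helper fate was part of the culture, and WT cells are therefore activated T cells and not a sorted follicular helper population.

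Follicular helper T cells enter B cell follicles and help B cells in germinal centers. BCL6, a transcriptional repressor, is required for their formation, and the repressor encoded by Prdm1 (Blimp-1) antagonizes it. CXCR5 guides the cells to the follicle, ICOS delivers a costimulatory signal and IL-21 acts on the B cells. OCA-B, encoded by Pou2af1, is a coactivator that works with the octamer-binding factors Oct-1 and Oct-2. ASCL2 is a basic helix-loop-helix factor that can induce Cxcr5, TOX2 is a factor of the HMG-box family that takes part in the program, and c-MAF, encoded by Maf, promotes Il21 and Il4 expression.

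The promoters of the genes whose levels moved most clearly are shown because Bcl6 and Pou2af1 fell together in the HDAC1cKO-HDAC2HET cells. RefSeq windows on GRCm38.p6, the build the submitters' notes also name, existed for 5 of the 8 genes (10 windows, since Tox2 and Bcl6 have several start sites). The 250 bases before each start site are given 5′ to 3′ on the strand of the gene. Capitals mark the letters TTCNNNGAA, the motif that STAT factors bind, which reads the same on both strands. The windows lie at chr16:23988853-23989102 and chr16:23981284-23981533 on the minus strand for Bcl6, the latter inside the gene, and at chr9:51213440-51213689 on the plus strand for Pou2af1.
Bcl6 outer start site: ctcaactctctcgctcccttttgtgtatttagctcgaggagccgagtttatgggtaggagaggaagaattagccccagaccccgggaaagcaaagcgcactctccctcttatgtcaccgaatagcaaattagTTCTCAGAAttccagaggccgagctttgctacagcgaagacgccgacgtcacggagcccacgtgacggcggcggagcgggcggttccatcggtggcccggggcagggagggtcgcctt
Bcl6 inner start site: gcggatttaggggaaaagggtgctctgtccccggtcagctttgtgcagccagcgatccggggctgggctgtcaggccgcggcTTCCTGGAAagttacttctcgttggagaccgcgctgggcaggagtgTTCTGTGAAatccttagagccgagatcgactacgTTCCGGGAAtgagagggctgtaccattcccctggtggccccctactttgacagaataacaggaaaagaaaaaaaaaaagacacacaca
Pou2af1: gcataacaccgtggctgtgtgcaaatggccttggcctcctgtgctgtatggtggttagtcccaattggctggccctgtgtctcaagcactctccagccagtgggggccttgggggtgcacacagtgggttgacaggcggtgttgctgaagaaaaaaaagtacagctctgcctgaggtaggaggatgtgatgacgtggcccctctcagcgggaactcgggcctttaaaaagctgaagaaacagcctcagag

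The outer Bcl6 window held 1 match to TTCNNNGAA, beginning at position -118 from the start site, and the inner window held 3, beginning at positions -168, -122 and -88. Of all 32851 RefSeq windows of the same length (250 bases before to 50 after the start), 8.30% held at least 1 match and 0.0335%, or 11 windows, held 3 or more. The other 8 windows, those of Pou2af1, Tox2, Ascl2 and Il21, held no match. Neither the octamer ATGCAAAT, on either strand, nor the E-box CAGCTG occurred in any of the 10 windows of these genes. The octamer occurred in 1.74% and the E-box in 16.3% of all windows. These matches describe the letters only.

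Hdac1 was lower in every library of the mutant genotypes than in every WT library. Its FPKM (fragments per kilobase of transcript, scaled to the total of mapped fragments, a level corrected for length and depth) ranged from 76.3 to 79.6 in WT and from 6.65 to 10.7 in HDAC1cKO-HDAC2HET cells, and from 72.3 to 81.1 and 8.52 to 12.1 in the restimulated WT and HDAC1cKO cells. Hdac2 was 59.0 ± 1.04 (SD, n = 4) in WT and 35.4 ± 1.36 (n = 4) in HDAC1cKO-HDAC2HET cells, whereas it was 72.4 ± 8.65 (n = 3) and 80.4 ± 6.91 (n = 3) in restimulated WT and HDAC1cKO cells. CD4+ T cell genes were high throughout, with a summed FPKM of 6 markers between 946 and 1365. Of the B cell markers, Cd79b was between 0.203 and 0.376 FPKM in WT and between 2.12 and 3.26 in HDAC1cKO-HDAC2HET libraries, while Ms4a1, Pax5 and Blk were at or below 0.123 in all libraries. In the restimulated experiment Cd79b was between 0.304 and 0.483 in WT and between 0.511 and 0.778 in HDAC1cKO libraries. Cd8a and Cd8b1 together were between 3.28 and 5.96 in WT and between 11.7 and 15.2 in HDAC1cKO-HDAC2HET cells, and between 3.80 and 4.86 and between 6.52 and 7.30 in restimulated WT and HDAC1cKO cells. The regulatory T cell genes Foxp3 and Ikzf2 together were between 0.567 and 2.42 in WT and between 0.140 and 0.308 in HDAC1cKO-HDAC2HET cells, and between 1.27 and 1.60 and between 0.522 and 0.587 in restimulated WT and HDAC1cKO cells. Foxp3 was listed at 1.48 in 1 WT library without restimulation and at 0 in all others, so elsewhere the sum was Ikzf2 alone. Ikzf2 was between 0.567 and 0.948 in WT without restimulation. Natural killer and myeloid markers summed to at most 0.115 and 0.571 in any library. Their part in the results was not tested. Depth estimated from the deposited bounds was between 23400000 and 55200000 fragments per library.

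Bcl6 and Pou2af1 fell in HDAC1cKO-HDAC2HET cells, and Ascl2, Tox2 and Icos were lower with them, whereas Maf did not pass the test. The listed values of Cxcr5 and Il21 were too low to be tested. Those of Cxcr5 moved with where a neighbouring locus ended and do not give its level. The comparison asked how the reduction of HDAC1 and HDAC2 together changed the expression of activated CD4+ T cells. Changes were tested with limma on log2(FPKM + 0.1), in which the added 0.1 understates the change of low genes, and a gene was called when it changed at least 2-fold with an adjusted p of at most 0.05. Of the 6 genes tested, 4 were called lower and none higher. Over all 15143 genes tested, 5.57% were called lower and 5.59% higher. With regard to the adjusted p alone, 5 of the 6 were lower, where 27.6% of all genes were. The groups did not overlap for the same number, 5 of 6, as for 50.3% of all genes. Ascl2 passed the filter on low values only through WT, where it was high. Without it, 3 of 5 were called lower, 4 of 5 were lower by the adjusted p and 4 of 5 did not overlap. Changes were thus widespread in this comparison. The genes were chosen with earlier results of these data known, so these shares describe the list and test nothing. In bulk samples, fewer cells that express a gene and less RNA per cell cannot be told apart.

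Bcl6 lies on the minus strand of chr16:23965052-23988852 (GENCODE, GRCm38), where the gene Gm37419 on the other strand overlaps it. Bcl6 was 1.97, 1.98, 1.84 and 2.07 FPKM in the 4 WT libraries and 0.697, 0.729, 0.792 and 0.582 in the 4 HDAC1cKO-HDAC2HET libraries. All WT libraries were above all mutant libraries. The means were 1.96 ± 0.0947 and 0.700 ± 0.0882 (SD, n = 4 each), a ratio of 2.81, and the log2 fold change was -1.37 ± 0.10 (SE, limma adjusted p = 2.42e-05). Of all genes tested, 35.3% had a lower mean in WT, so that Bcl6 was expressed at a modest level in these cells.

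Pou2af1, on the plus strand of chr9:51213708-51240080, changed most among the 6 genes tested. It was 12.4, 15.8, 17.9 and 20.8 FPKM in WT, and 1.05, 1.13, 1.20 and 1.17 in HDAC1cKO-HDAC2HET cells. The WT libraries differed from each other much more than the mutant libraries did, and the lowest WT value remained far above the highest mutant value. WT exceeded mutant cells 14.7-fold by their means, a log2 fold change of -3.74 ± 0.15 (SE, limma adjusted p = 1.91e-06), the 55th lowest of all 15143 genes tested. The gene Gm47828 lies in an intron of Pou2af1 on the same strand, and its reads could not be told apart in every library.

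Tox2, at chr2:163203125-163324170, was 0.507, 0.772, 0.614 and 0.687 FPKM in WT and 0.234, 0.261, 0.209 and 0.319 in HDAC1cKO-HDAC2HET cells. The groups did not overlap, and the log2 fold change was -1.06 ± 0.16 (SE, limma adjusted p = 0.000896), just past the 2-fold limit. Without WT replicate 2 or without HDAC1cKO-HDAC2HET replicate 3 it was -0.983 or -0.998 and no longer met that limit.

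Ascl2, at chr7:142966829-142969264, was near the floor of the measurement. It was listed at 0.297, 0.133, 0.393 and 0.304 FPKM in WT and at 0.0650, 0.0717, 0 and 0.0194 in HDAC1cKO-HDAC2HET cells. The WT values were all higher, but the deposited lower bound was 0 in WT replicate 2 and 0.00286 in WT replicate 4. The log2 fold change was -1.44 ± 0.30 (SE, limma adjusted p = 0.00427). With mutant values this low, it passed the filter on low values only through its WT values.

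Maf, at chr8:115682942-115707794, was low in both genotypes and its groups overlapped. It was 0.0816, 0.194, 0.105 and 0.151 FPKM in WT and 0.170, 0.166, 0.170 and 0.205 in HDAC1cKO-HDAC2HET cells. The log2 fold change was 0.28 ± 0.19 (SE, limma adjusted p = 0.268, 95% interval from -0.17 to 0.72). The antisense gene Gm15655 overlaps Maf.

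Icos, at chr1:60977927-61000320, was the most abundant of the 8 genes, above 93.4% of all tested genes in WT. It was 86.9, 105, 91.1 and 88.8 FPKM in WT and 66.5, 55.4, 48.4 and 52.8 in HDAC1cKO-HDAC2HET cells, with no overlap. The means were 93.1 ± 8.36 and 55.8 ± 7.71 (SD, n = 4 each). It fell with a log2 fold change of -0.74 ± 0.10 (SE, limma adjusted p = 0.000577), which did not reach the 2-fold limit. The interval of the change, from -0.98 to -0.50, lay within that limit.

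Il21, at chr3:37222759-37232636, was barely detected. It was 0.0314, 0.0220, 0.0761 and 0.00717 FPKM in WT and 0.0675, 0.117, 0.233 and 0.152 in HDAC1cKO-HDAC2HET cells. The mutant values were mostly higher, but the lowest mutant value lay below the highest WT value, and the deposited lower bound was 0 in all but 1 of these 8 libraries. Il21 did not pass the filter of a mean FPKM of 0.1. The antisense gene Gm12534 overlaps it.

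Cxcr5 could not be read from these files. It was listed at 0 in 11 of the 14 libraries and at 0.178, 0.0876 and 0.233 FPKM in WT replicate 1 and restimulated WT replicates 1 and 3. The neighbouring gene Bcl9l, on the opposite strand, overlaps the end of Cxcr5: in the GRCm38 annotation Bcl9l spans chr9:44482825-44511896 and Cxcr5 chr9:44511787-44561877. In all 11 libraries with Cxcr5 at 0, the assembled locus over Bcl9l reached 1 to 50 bases into the listed span of Cxcr5. In the 3 libraries with a value above 0 it ended 25 to 52 bases before it. The listed level of Cxcr5 therefore moved with where that locus ended, and no difference between genotypes was read from it.

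**Figure D1:**
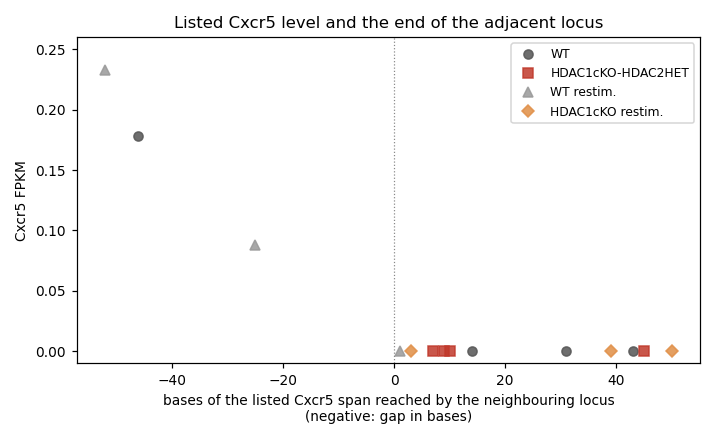
Listed Cxcr5 level (FPKM) in each of the 14 libraries against the number of bases by which the neighbouring assembled locus reached into the listed Cxcr5 span (negative values are gaps). Symbols are the 4 groups. The 11 libraries with 1 to 50 shared bases lie at 0, and the 3 libraries with a gap of 25 to 52 bases lie above it.

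**Figure D2:**
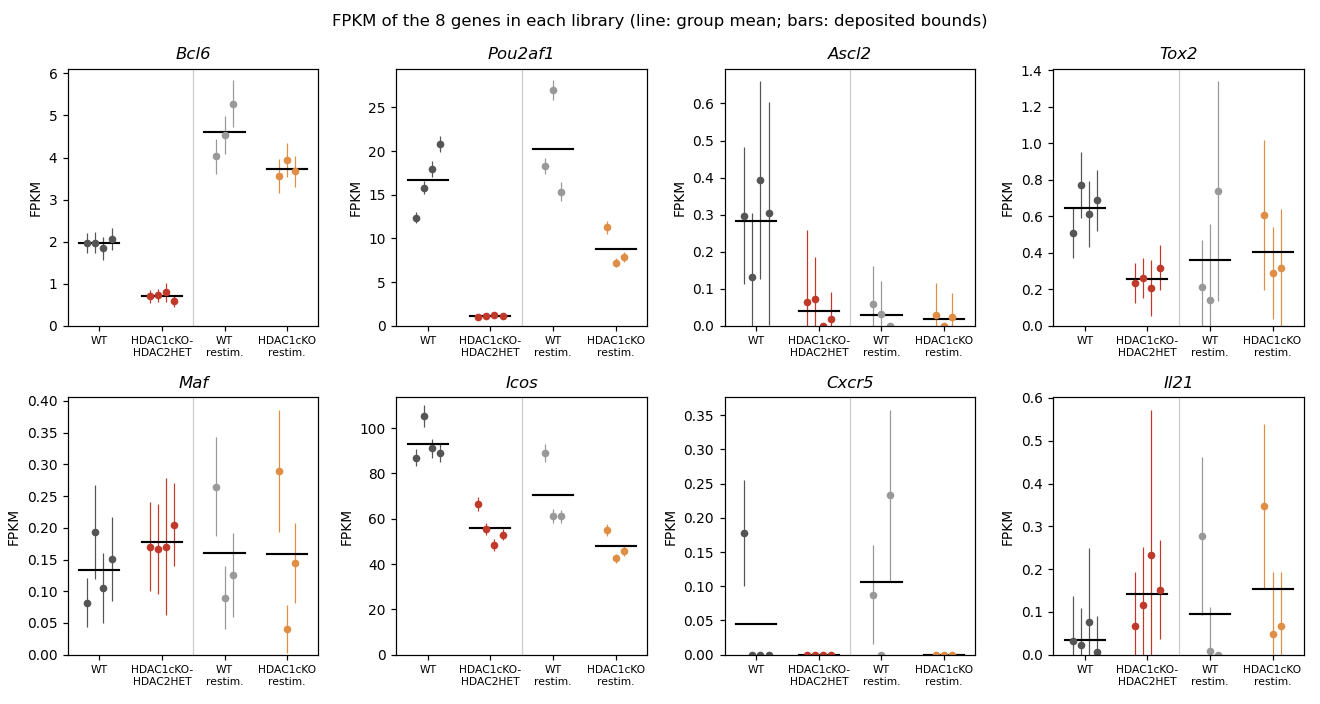
FPKM (linear axes, from 0) of the 8 genes in each library of the 4 groups. Points are libraries, bars the deposited bounds of each value and lines the group means. Bcl6, Pou2af1, Tox2, Ascl2 and Icos do not overlap between WT and HDAC1cKO-HDAC2HET, and Cxcr5 lies at 0 in 11 libraries.

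None of the 8 genes was called in restimulated HDAC1cKO cells, though Pou2af1, Icos and Bcl6 were lower in each of the 3 HDAC1cKO libraries than in each of the 3 WT libraries. The comparison asked what the loss of HDAC1 alone changed after restimulation. Of the 5 genes tested, 0 were called by limma, while 2 were lower at an unadjusted p under 0.05 and none was higher. Over all 14030 genes tested, 0.0641% were called lower, 0.0143% higher, and 7.68% were lower at an unadjusted p under 0.05. The groups did not overlap for 3 of the 5 genes, as for 22.3% of all genes. With 3 libraries per group, an exact permutation test of 1 gene could not go below p = 0.1, and that was the value for Bcl6, Pou2af1 and Icos.

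Pou2af1 was 18.3, 27.0 and 15.3 FPKM in restimulated WT and 11.3, 7.24 and 7.88 in HDAC1cKO cells. The lowest WT library and the highest HDAC1cKO library were separated by a few FPKM. By their means WT exceeded HDAC1cKO cells 2.30-fold, a log2 fold change of -1.18 ± 0.26 (SE, limma adjusted p = 0.189, 95% interval from -1.81 to -0.54). Where both experiments shared 1 estimate of the spread, the same change had a limma adjusted p of 0.00848 and was called. That fit called 1.11% of its 12373 genes lower.

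Bcl6 was 4.03, 4.53 and 5.28 FPKM in restimulated WT and 3.56, 3.94 and 3.67 in HDAC1cKO cells. The groups were next to each other without overlap, and the log2 fold change was -0.29 ± 0.14 (SE, limma adjusted p = 0.399, 95% interval from -0.64 to 0.05). Icos was 89.1, 61.2 and 61.0 FPKM in WT and 55.0, 42.4 and 45.9 in HDAC1cKO cells, with a log2 fold change of -0.54 ± 0.18 (SE, limma adjusted p = 0.289). The WT library 1 stood above the other two.

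Tox2 and Maf overlapped between restimulated WT and HDAC1cKO cells. Tox2 was 0.210, 0.139 and 0.740 FPKM in WT and 0.608, 0.290 and 0.315 in HDAC1cKO cells, and WT replicate 3 alone was higher than all HDAC1cKO libraries. Maf was 0.265, 0.0898 and 0.126 FPKM in WT and 0.290, 0.0410 and 0.145 in HDAC1cKO cells. Their log2 fold changes were 0.29 ± 0.55 and -0.07 ± 0.49 (SE), and both signs turned when single libraries were left out. Without restimulated WT replicate 2, the change of Tox2 was -0.07, and without WT replicate 1 or HDAC1cKO replicate 2, that of Maf was 0.20 or 0.30.

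Ascl2 and Il21 were not tested in the restimulated cells. Ascl2 did not pass the filter on low values. Il21 was left out because the unnamed locus matched to it was listed at 0 in WT replicate 3. Ascl2 was listed at 0.0591, 0.0319 and 0 FPKM in WT and at 0.0303, 0 and 0.0240 in HDAC1cKO cells. Il21 was listed at 0.278, 0.00849 and 0 in WT and at 0.347, 0.0479 and 0.0675 in HDAC1cKO cells, and in each genotype replicate 1 was the highest. In the restimulated libraries Xist, which is expressed from the inactive X chromosome in female cells, was 42.9 and 33.2 FPKM in WT replicates 1 and 3 and below 0.1 in the other 4 libraries. Libraries with high Xist were therefore found in WT only in this experiment. In a fit with a term for high Xist, the log2 fold change was -1.63 for Pou2af1 and 1.02 for Tox2. Those changes rest on 1 WT library, since the term left only WT replicate 2 to set against the HDAC1cKO libraries. In the experiment without restimulation Xist was between 58.9 and 65.2 FPKM in WT and between 26.04 and 33.7 in HDAC1cKO-HDAC2HET cells.

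**Figure D3:**
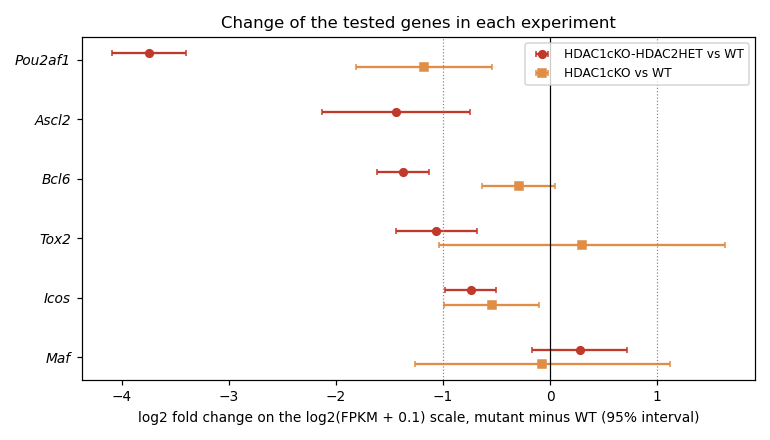
Log2 fold change on the log2(FPKM + 0.1) scale (mutant minus WT, with 95% interval from limma) of the 6 genes tested, circles for HDAC1cKO-HDAC2HET and squares for HDAC1cKO. Dotted lines mark a 2-fold change and Ascl2 was not tested in HDAC1cKO. Pou2af1 lies at -3.74 and -1.18 and Bcl6 at -1.37 and -0.29.

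The log2 fold changes of Bcl6 and Pou2af1 were more negative in HDAC1cKO-HDAC2HET than in HDAC1cKO cells, in which neither gene was called. The difference of the log2 fold changes was -1.08 ± 0.16 (SE, limma adjusted p = 0.00125) for Bcl6 and -2.56 ± 0.30 (adjusted p = 0.000275) for Pou2af1. Of all 12373 genes tested in both experiments, 15.6% passed for this difference, and 2 of the 5 members did. With the spread of each experiment kept apart, the adjusted p was 0.00369 for Bcl6 and 0.00132 for Pou2af1. For Icos the difference was -0.20 ± 0.21 (adjusted p = 0.573), for Tox2 -1.36 ± 0.52 (adjusted p = 0.104) and for Maf 0.35 ± 0.47 (adjusted p = 0.677). Without restimulated WT replicate 3, the difference for Tox2 was -1.90 (adjusted p = 0.00529). The experiments differed in genotype and in restimulation. They also differed in the listed spans of some genes and in which libraries had high Xist. The paper refers to an earlier study for the restimulated cells. The parts of these differences cannot be told apart.

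The genes whose profile over the 14 libraries was most like that of Bcl6, each library taken as the log2 difference from the WT mean of its experiment, were Snx9, Tmub1, Sptb, Jak3 and Dusp6. Their root mean square distances to Bcl6 were 0.0919, 0.121, 0.132, 0.139 and 0.141 on the log2 scale. Among 10279 protein-coding genes tested in both experiments, Icos ranked 895 in nearness, Tox2 1555, Maf 8053 and Pou2af1 9572. The distance was not scaled, so it counts the size of a change and not only its direction. Pou2af1 ranked far although its log2 fold changes had the same sign as those of Bcl6. They were -3.74 and -1.18, against -1.37 and -0.29 for Bcl6. Ascl2, Il21 and Cxcr5 were not compared, as they were not tested in both experiments.

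Genes that accompany the program were also measured, in 3 lists that held no member: 17 surface, signalling and secreted genes, 12 transcription factors and cofactors, and 12 genes known to oppose the program or the move into follicles. In HDAC1cKO-HDAC2HET cells 40 of the 41 were tested, of which 14 were called lower and 4 higher. Over all genes tested, 5.57% were called lower and 5.59% higher. The median log2 fold change was -1.12 for the 16 tested surface genes, -0.50 for the factors and -0.00 for the opposing genes, where it was -0.05 over all genes tested. These lists too were chosen with earlier results of these data known.

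Of the surface genes, 9 were called lower and 2 higher. Il6ra, the receptor chain for the cytokine IL-6, was between 19.4 and 23.8 FPKM in WT and between 2.16 and 2.88 in HDAC1cKO-HDAC2HET cells, a log2 fold change of -3.05 ± 0.10 (SE, limma adjusted p = 9.16e-07). P2rx7, a receptor for extracellular ATP, fell by 2.38 on the log2 scale, Slamf6, a receptor of the SLAM family, by 2.22 and Izumo1r, the folate receptor FR4, by 2.07. Tigit, an inhibitory receptor, rose from 21.4 ± 7.51 to 88.6 ± 5.32 FPKM (SD, n = 4 each), and Sh2d1a, which encodes the SLAM adaptor SAP, rose from 48.8 ± 5.07 to 133 ± 15.6. The surface list therefore moved in both directions.

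Of the factors, Id3 alone was called. It was 88.1 ± 3.85 FPKM in WT and 24.03 ± 3.85 in HDAC1cKO-HDAC2HET cells (SD, n = 4 each), with a log2 fold change of -1.88 ± 0.11 (SE, limma adjusted p = 7.87e-06). It encodes an inhibitor of E proteins. By the adjusted p alone, 8 of the 12 factors were lower and 1 was higher. Of all genes tested, 27.6% were lower by it, and 3657 of 15143 were higher.

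Of the opposing genes, 4 were called lower and 2 higher. Prdm1 was 0.143, 0.110, 0.0889 and 0.0902 FPKM in WT and 3.26, 3.85, 2.00 and 2.69 in HDAC1cKO-HDAC2HET cells. Its log2 fold change was 3.84 ± 0.21 (SE, limma adjusted p = 5.60e-06), and it thus rose where Bcl6 fell. Il2rb, a chain of the IL-2 receptor, rose from 174 ± 13.95 to 354 ± 18.2 FPKM (SD, n = 4 each). Klf2, a factor that maintains the expression of migration receptors, fell by 3.14 on the log2 scale, Id2, another inhibitor of E proteins, by 2.07, Gpr183, a chemotactic receptor for oxysterols, by 1.93 and S1pr1, the receptor used in egress from lymphoid organs, by 1.24. Genes of this list thus changed in both directions.

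In restimulated HDAC1cKO cells 36 of the 41 genes were tested and 0 were called by limma, with 13 lower and 1 higher at an unadjusted p under 0.05, where 7.68% of all genes were lower. Prdm1 was 0.181, 0.0437 and 0.0388 FPKM in WT and 0.220, 0.142 and 0.254 in HDAC1cKO cells, which overlapped. The locus read for Prdm1 here (chr10:44437177-44528501) was longer than in the experiment without restimulation (chr10:44437177-44458748). Its levels are therefore not alike between the experiments. In the fit with 1 shared spread, which called more genes throughout, 4 genes of the lists were called, namely Klf2, Gpr183, P2rx7 and Tnfsf8, all lower. That fit called 1.11% of all its genes lower.

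**Figure D4:**
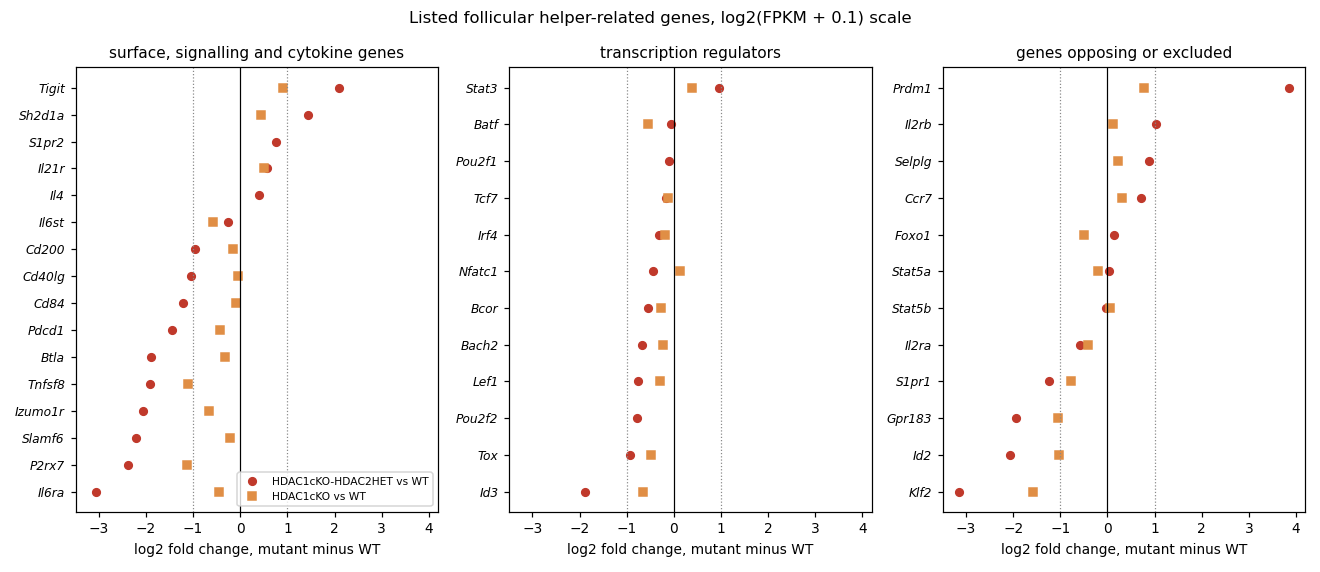
Log2 fold change (log2(FPKM + 0.1) scale, mutant minus WT) of the tested genes of the 3 lists, circles for HDAC1cKO-HDAC2HET and squares for HDAC1cKO. Dotted lines mark a 2-fold change. Il6ra at -3.05, Id3 at -1.88 and Klf2 at -3.14 are the lowest of their lists in HDAC1cKO-HDAC2HET cells, and Prdm1 at 3.84 is the highest of all.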

How the data were processed

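The authors aligned 50-base single-end reads of stranded mRNA libraries to mm10 with TopHat and estimated FPKM with Cufflinks per library, per the study's methods. The submitters' processing notes list FastQC, STAR 2.5.2b, Subread 1.5.1, R 3.4 and edgeR without a role. The deposited files hold FPKM with a lower and an upper bound for each assembled locus, and many loci carry no gene name. A gene's value was taken from its named row. Otherwise it came from the unnamed locus that shared at least 0.8 of the joint span with the annotated gene or any of its transcripts. Of the 112 values of the 8 genes, 59 came from named rows and 53 from position. Genes for which such a locus was listed at 0 were left out (3440 and 3252 genes). Counts were not used, so depth was estimated from the bounds and is approximate.

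The filter on low values kept genes whose FPKM averaged 0.1 or more, which were tested with limma 3.58.1 (R 4.3.3) on log2(FPKM + 0.1) with an intensity trend, each experiment alone, with Benjamini-Hochberg adjustment over all genes tested. The difference between experiments was a contrast over all 14 libraries. The scripts were tested on simulated data, in which the shared-spread contrast, and to a smaller degree the one with separate spreads, made more false calls than its nominal rate, so that adjusted p-values of that difference are too small. Same-numbered libraries did not deviate together (correlations from -0.00 to 0.04 and from -0.01 to 0.01). The 8 genes, the lists and the tests were chosen with earlier results of these data known. Named genes are the members, Hdac1, Hdac2, Prdm1, up to 4 called genes per list and direction, the 5 nearest to Bcl6, the cell type markers and Xist. Tnfsf8 was named after its value was seen. A marker from the B cell list is not reported here.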

Additional observations from a re-analysis of the deposited data

Results flagged for a closer look

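Of 47 groups of 4 libraries examined for the named genes, 5 held a library that stood apart from the other 3 by Dixon's criterion, where chance flags about 1 in 20. They were Cxcr5 in WT replicate 1 (0.178 FPKM, the others at 0), Maf in HDAC1cKO-HDAC2HET replicate 4 (0.205), Klf2 in WT replicate 1 (17.4) and in HDAC1cKO-HDAC2HET replicate 3 (1.79), and Sh2d1a in HDAC1cKO-HDAC2HET replicate 3 (156).

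The log2 fold change differed between the experiments for 13 of 21 named genes tested, where 15.6% of all genes passed. Many of these genes were named because they were called in HDAC1cKO-HDAC2HET cells, and Hdac2 is deleted from 1 allele there by design, so the count favours a difference and supports nothing. It was more negative in HDAC1cKO-HDAC2HET than in HDAC1cKO cells for Bcl6 (-1.08), Pou2af1 (-2.56), Slamf6 (-2.003), Izumo1r (-1.42), P2rx7 (-1.26), Il6ra (-2.59), Id3 (-1.22), Klf2 (-1.56), Gpr183 (-0.87) and Hdac2 (-0.89). It was more positive for Prdm1 (3.08), Sh2d1a (1.00) and Il2rb (0.92). Prdm1 was read from a longer locus in the restimulated libraries (to chr10:44528501) than in the others (to chr10:44458748). Its difference therefore compares unlike loci. With the spread of each experiment kept apart (a Welch-type t test on the limma standard errors), Izumo1r (adjusted p = 0.0572) and Sh2d1a (0.0862) no longer passed.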

How the results depend on the processing

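Of the 4 members called in HDAC1cKO-HDAC2HET cells, 1 remained with a pseudocount of 1, which by construction shrinks the change of low genes, and 2 with a mean FPKM of at least 1, under which 3 members were tested and 3 had an adjusted p of at most 0.05. Leaving out single libraries gave 3 to 4 called members, 5 with an adjusted p of at most 0.05 and 17 to 19 called genes of the lists. In restimulated HDAC1cKO cells, 1 shared fit of both experiments gave 1 called member, 2 with an adjusted p of at most 0.05 and 4 called genes of the lists instead of 0, and leaving out single libraries gave 0 of each. The difference between the experiments passed for 2 to 3 members when single libraries were left out. Signs turned for Maf and Tox2 in restimulated cells. Leaving out single libraries moved the change of Maf from -0.43 to 0.30 and that of Tox2 from -0.071 to 0.83, and the difference between the experiments for Maf from -0.027 to 0.71. With a term for high Xist, Maf was 0.33, Tox2 1.02 and Pou2af1 -1.63. That fit set restimulated WT replicate 2 alone against the HDAC1cKO libraries. The cause of the turned signs was not tested. The samples share only a replicate number, and with the replicate block 4 members and 18 genes of the lists were called in HDAC1cKO-HDAC2HET cells and 0 in HDAC1cKO cells, with 2 differences. Without a filter on low values, Il21 was higher in HDAC1cKO-HDAC2HET cells by 0.83 on the log2 scale (limma adjusted p = 0.0288). The deposited lower bounds of Ascl2 and Il21, and of Tox2 in restimulated cells, were 0 in some libraries, which limits what these values show.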
